A study of Mus musculus with 3 samples.

Results

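Potassium channel subunits are described here in mouse retina on 3 Affymetrix whole-transcript GeneChip arrays. The members are all genes whose probe sets carry exactly 1 gene symbol made of Kcn, a lower-case letter code and a number, with the probe set of highest mean taken for each gene. There were 86 such genes, from 93 probe sets, among 22180 genes in all. The retinae came from C57 mice and were collected after an injection into the vitreous of the eye. The control array was taken 2 hr after AP, which the labels do not spell out. The second array was taken 2 hr after cavtratin, a peptide that enters cells and holds the caveolin-1 scaffolding domain. The third was taken 2 days after Cav1-shRNA, a short hairpin RNA against Cav1 by its name. There was 1 array per group, of RNA from a pool of 5 to 6 retinae. The differences below therefore compare pools on 2 arrays and not conditions, no test was run, and no error between animals exists for any value.

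Potassium channels let potassium leave or enter a cell along its gradient, and so set the resting potential, shape spikes and end depolarisation. Pore subunits of the voltage-gated, inward-rectifier, tandem-pore and calcium- or sodium-activated families assemble with partners that alter gating and trafficking. In the retina, photoreceptors use voltage-gated channels to shape the light response, ganglion cells use them to fire, and Muller glia use inward rectifiers to take up and redistribute the potassium that neurons release.

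Values are the deposited ones, read as log2 expression, and a difference is one array's value minus another's. Values of different genes come from different probes and were not ranked. As expression floor served 6.50, which is the median of the 3-array means of all probe sets that carry 1 symbol. A member was counted in a comparison when the higher of its 2 arrays reached the floor. By that rule 46 members lay at or above the floor in at least 1 array and 40 lay below it in all 3. Just above it were Kcnj6, with a highest value of 6.53, and Kcnk6, at 6.55, and just below it were Kcnj11 and Kcng3, each at 6.47. Array medians over all probe sets were 6.07 for AP control, 6.06 for cavtratin and 6.01 for Cav1-shRNA. Cav1 itself, on 1 probe set, stood at 8.26 in all 3 arrays. Equal values in all 3 arrays were held by 43.2% of genes at or above the floor. The array labelled Cav1-shRNA thus showed no loss of its target, but such a tie cannot settle whether the target was reduced. This bears on each direction read from that array. All 6 measured rod markers lay at or above the floor in this tissue labelled retina.

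No potassium channel subunit was 1.5-fold apart between any 2 arrays. For cavtratin against AP control, 0 of 46 members were higher by 1.5-fold or more and 0 were lower by as much, where 2.19% and 0.235% of all genes at or above the floor were. For Cav1-shRNA against AP control the counts were again 0 of 46 higher, against 0.901% of all genes, and 0 lower, against 0.367%. For Cav1-shRNA against cavtratin they were 0 of 45 higher, against 0.0959%, and 0 lower, against 1.53%. Counts of 0 lie near these backgrounds and do not set the family apart. Genes with 2 probe sets gave a yardstick for single differences. Over 271 such genes the SD of a difference, taken from the gap between both probe sets, was 0.12 for cavtratin against AP control, 0.090 for Cav1-shRNA against AP control and 0.11 for Cav1-shRNA against cavtratin. The median absolute gap between both probe sets was 0.04, 0.0405 and 0.0477 in the same order, so wide gaps weigh on the SD. It holds no spread between animals or pools and applies to single genes, not to medians over genes. Beyond it lay 4 members of 46 in the first comparison (12.3% of all genes), 8 of 46 in the second (15.5%) and 4 of 45 in the third (11.8%).

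**Figure D1:**
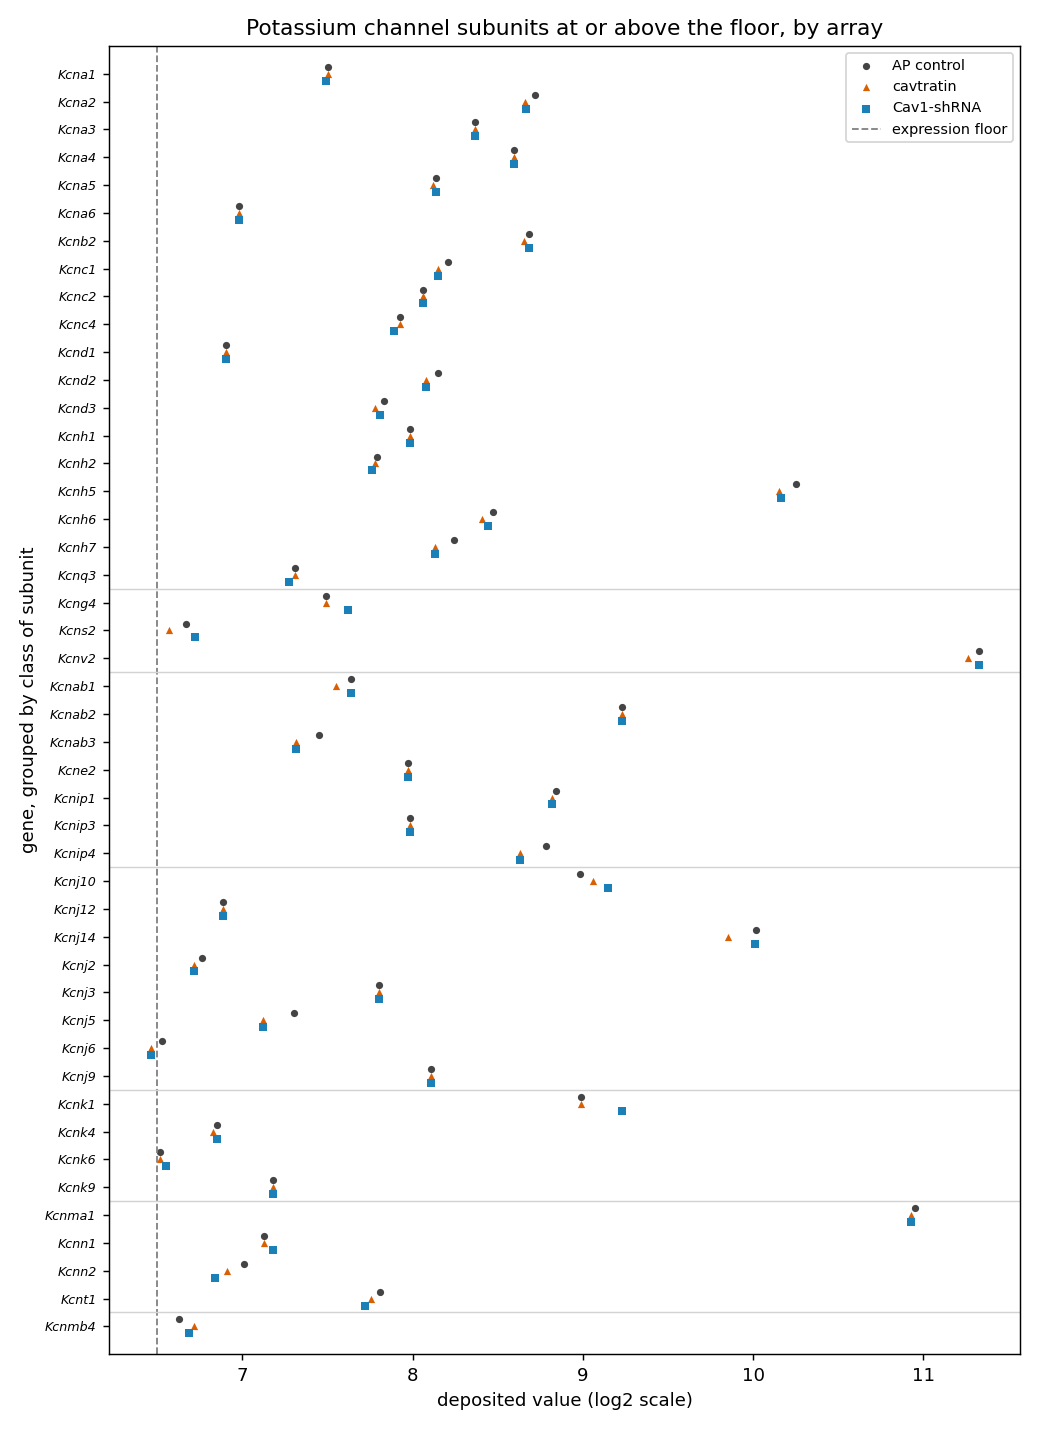
Deposited value on the log2 scale (x axis) of the 46 potassium channel subunits at or above the floor in at least 1 array (y axis, grouped by class in the order voltage-gated pore, modifier, auxiliary, inward rectifier, tandem-pore, calcium- or sodium-activated, BK beta), with a point per array and the floor of 6.50 as a dashed line. The 3 points of a gene nearly coincide, and the widest gap is that of Kcnk1, from 8.99 to 9.23.

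Promoter sequences are shown for 4 members with 1 annotated start site. Kcnj5 and Kcnh7 had equal values in cavtratin and Cav1-shRNA, both lower than AP control. Among members at or above the floor, Kcnk1 and Kcnj10 had the largest positive differences of the array labelled Cav1-shRNA from AP control. Each runs 5′ to 3′ on the gene's strand, from 250 bases before to 50 after the RefSeq start, on GRCm38.p6. Capitals mark the Sp1 GC box, GGGCGG or its reverse complement CCGCCC. They lie at chr9:32344295-32344594 (minus strand, Kcnj5), chr2:63184238-63184537 (minus, Kcnh7), chr8:125994852-125995151 (plus, Kcnk1) and chr1:172340960-172341259 (plus, Kcnj10).
Kcnj5: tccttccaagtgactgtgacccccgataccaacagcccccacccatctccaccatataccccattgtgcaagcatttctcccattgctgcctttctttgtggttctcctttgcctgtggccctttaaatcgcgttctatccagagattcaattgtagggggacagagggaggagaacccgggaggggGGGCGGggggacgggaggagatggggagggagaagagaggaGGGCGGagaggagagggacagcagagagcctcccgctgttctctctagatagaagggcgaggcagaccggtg
Kcnh7: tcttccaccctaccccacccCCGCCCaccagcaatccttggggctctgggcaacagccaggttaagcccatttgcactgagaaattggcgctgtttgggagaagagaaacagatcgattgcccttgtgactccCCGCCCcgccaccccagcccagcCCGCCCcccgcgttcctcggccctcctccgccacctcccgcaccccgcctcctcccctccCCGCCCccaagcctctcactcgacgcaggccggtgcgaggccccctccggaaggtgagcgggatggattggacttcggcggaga
Kcnk1: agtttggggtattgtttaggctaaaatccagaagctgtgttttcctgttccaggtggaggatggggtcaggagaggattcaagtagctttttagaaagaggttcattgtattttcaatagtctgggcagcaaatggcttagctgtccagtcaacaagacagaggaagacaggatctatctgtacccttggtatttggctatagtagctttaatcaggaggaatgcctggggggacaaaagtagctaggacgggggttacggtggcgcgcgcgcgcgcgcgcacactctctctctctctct
Kcnj10: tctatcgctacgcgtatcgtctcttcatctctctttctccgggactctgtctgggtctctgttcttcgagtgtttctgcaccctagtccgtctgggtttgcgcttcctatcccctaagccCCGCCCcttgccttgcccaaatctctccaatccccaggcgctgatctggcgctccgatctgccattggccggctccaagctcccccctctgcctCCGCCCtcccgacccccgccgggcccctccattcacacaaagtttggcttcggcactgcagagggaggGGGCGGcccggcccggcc

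The GC box occurred 2 times in the Kcnj5 window, 4 times in that of Kcnh7, 3 times in that of Kcnj10 and 0 times in that of Kcnk1. Such a window was found for 66 of the 86 members, in 91 windows, of which 44 held the GC box (48.4%), against 35.7% of all 32851 windows. Median GC content was 58.0% in the members' windows and 52.7% in all. The CRX core TAATCC, a photoreceptor motif, was searched on both strands too and lay in 2 of the 91 windows (2.2%, against 7.06% of all), the TATA box TATAAA in 4 (4.4%, against 13.6%) and the cyclic AMP response element TGACGTCA in 0 (against 1.79%). A match describes letters only, and the arrays did not measure binding.

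Cavtratin and AP control were both taken 2 hr after injection. Where members differed between them, most were lower in cavtratin, by small amounts. Of 46 members, 24 were lower by any amount, against 25.9% of all genes, 2 were higher, against 19.6%, and 20 were exactly equal, against 54.5%. Over all 86 members, 30 were lower (34.9%, against 20.9% of all genes with no floor), 4 higher (4.65% against 17.5%) and 52 equal (60.5% against 61.6%). Other scalings moved these counts, for members and for all genes alike. Centring each array on its median gave 24 lower and 22 higher (23.9% and 76.1% of all genes), quantile normalization 44 and 2 (79.5% and 19.8%), and subtraction of a loess trend 24 and 12 (25.9% and 50.1%). The members' median lay 0.016 to 0.018 below that of all genes under each of these scalings. Centring shifts both medians alike and the loess trend shifted neither, so neither tests this gap. With the floor 0.5 lower both medians were 0. The median was −0.018 over the 46 and 0 over all 86, as over all genes. By at least 0.1, 6 members were lower (6.15% of all genes) and 0 were higher (8.4%). They were Kcnj5, Kcnj14, Kcnip4, Kcnab3, Kcnh7 and Kcnn2. Centring left 5 lower by that much, with Kcnn2 at −0.0935, and quantile normalization made 9 lower. With both, 0 were higher.

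Other receptor and channel families of neurons also had more lower than higher members. Of 30 glutamate, GABA and glycine receptor subunits at or above the floor, 19 were lower and 0 higher in cavtratin, with a median of −0.042, and of 29 voltage-gated sodium and calcium channel subunits 13 were lower and 1 higher, with a median of 0. With 1 array per group the differences between these families could not be tested. Markers of some retinal cell types were lower too. Ganglion cell markers were lower in 6 of 7 with a median of −0.078, bipolar cell markers in 5 of 6 with a median of −0.041 and cone markers in 6 of 7 with a median of −0.096. Rod markers were lower in 3 of 6 and higher in 0, with a median of −0.0012. The medians of Muller glia, amacrine and horizontal cell markers were 0, with 2 of 8, 1 of 7 and 2 of 5 higher and 3, 1 and 2 lower. Summed linear levels over the measured list were 5350 in AP control, 5020 in cavtratin and 5120 in Cav1-shRNA for ganglion cells, 5140, 4910 and 4950 for bipolar cells, and 7940, 7300 and 7780 for cones. In these bulk pools fewer cells of a type and less RNA per cell cannot be told apart. Markers of leukocytes and lens were higher in cavtratin. Those of neutrophils and monocytes (6 of 7 higher) summed to 522 in AP control, 2170 in cavtratin and 944 in Cav1-shRNA. Those of microglia and macrophages (7 of 8 higher) summed to 1330, 3690 and 2190, and those of lens (7 of 9 higher) to 1420, 8220 and 1300. Endothelial markers were higher in 4 of 6 with a median of 0.25. Those of pericytes (2 of 7 higher, 3 lower) and of the retinal pigment epithelium (3 of 7 higher, 1 lower) had medians of 0. The pericyte list includes Kcnj8, itself a member, and its partner Abcc9, so it is not separate from the potassium channels. The part of these markers in the values of potassium channels was not tested.

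**Figure D2:**
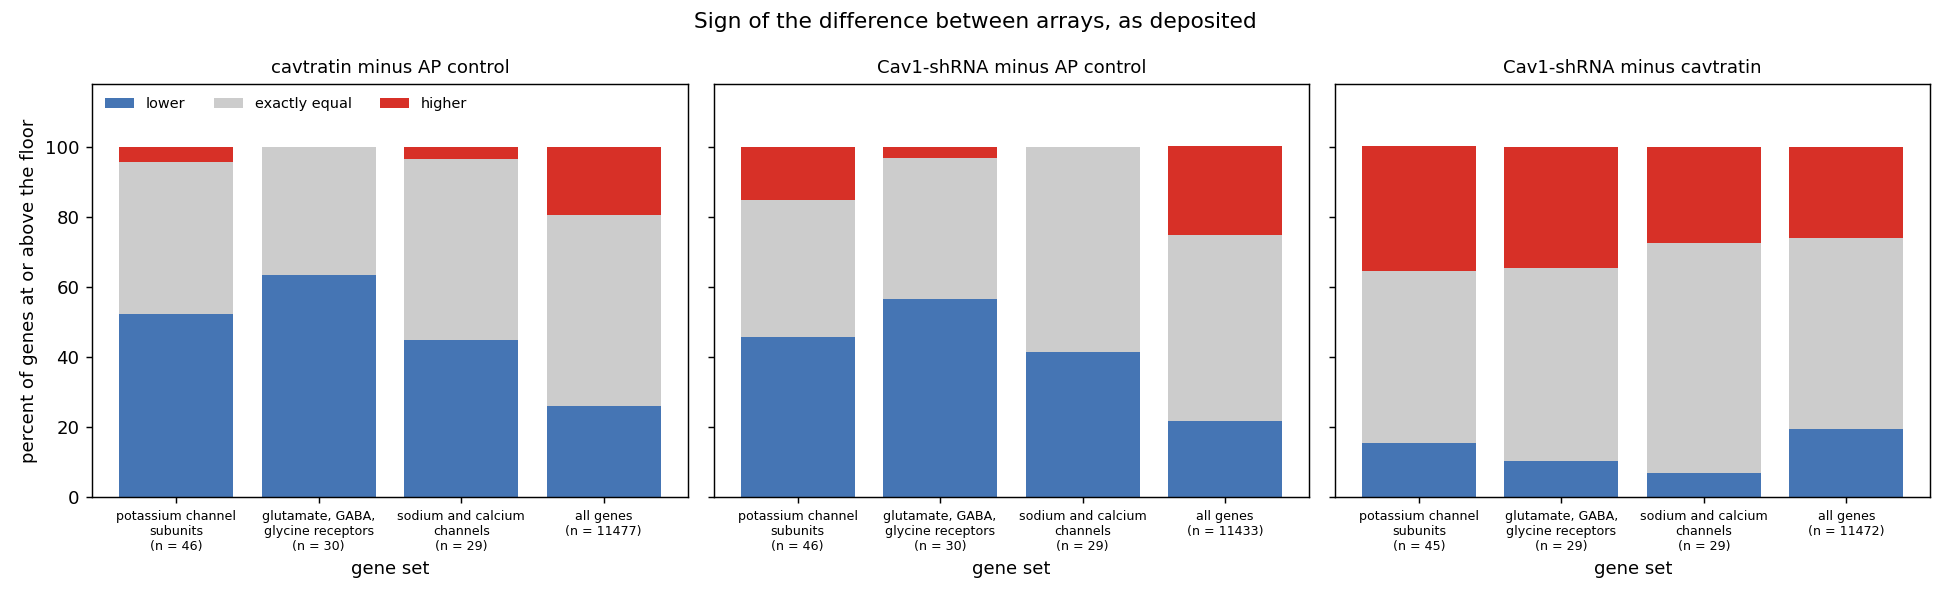
Percent of genes at or above the floor (y axis) whose deposited value was lower (blue), exactly equal (grey) or higher (red), for potassium channel subunits, glutamate, GABA and glycine receptor subunits, voltage-gated sodium and calcium channel subunits and all genes (x axis), in each of the 3 comparisons. In cavtratin against AP control 52.2% of potassium channel subunits were lower, against 25.9% of all genes.

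The array labelled Cav1-shRNA was taken at 2 days and AP control at 2 hr, so agent and time cannot be told apart. The largest differences had both signs. Of 46 members, 21 were lower by any amount, against 21.9% of all genes, 7 were higher, against 25.2%, and 18 were exactly equal, against 53.0%. Over all 86 members, 27 were lower (31.4%, against 18.5% of all genes with no floor), 10 higher (11.6% against 22.4%) and 49 equal (57.0% against 59.1%). The counts moved with the scaling, as those of all genes did. Centring gave 10 lower and 38 higher of 48 (9.82% and 90.2% of all genes), quantile normalization 18 and 30 of 48 (17.1% and 82.7%), and the loess trend 21 and 25 of 46 (21.9% and 78.1%). The share of members that were lower was thus 20.8%, 37.5% and 45.7%. The median was 0. By at least 0.1, 5 members were lower (5.71% of all genes), Kcnj5, Kcnn2, Kcnip4, Kcnab3 and Kcnh7, and 3 were higher (8.25%), Kcnk1, Kcnj10 and Kcng4. Centring, which adds 0.058 to every difference here, left 2 lower and made 6 higher.

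Cav1-shRNA was also set against cavtratin, 2 arrays that do not include the control. Here 16 of 45 members were higher, against 25.9% of all genes, 7 were lower, against 19.4%, and 22 were exactly equal, against 54.7%. Over all 86 members, 19 were higher (22.1%, against 22.3% of all genes with no floor), 11 lower (12.8% against 16.8%) and 56 equal (65.1% against 60.8%). Centring gave 46 higher and 1 lower of 47, quantile normalization the same counts, and the loess trend 25 higher and 20 lower of 45, where 89.2%, 86.3% and 52.5% of all genes were higher. By at least 0.1, 4 were higher (6.07% of all genes), Kcnk1, Kcnj14, Kcns2 and Kcng4, and 0 were lower (7.44%). Centring made 7 higher and quantile normalization 6.

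Exact ties shaped these counts. All 3 arrays had the same value, to within 1e-09, in 13 of the 46 members at or above the floor, 28.3%, against 43.2% of 11510 genes. AP control alone stood apart in 10 of the 46, 21.7% against 11.4% of all genes, with cavtratin and Cav1-shRNA equal to each other, and in all 10 its value was the higher one. Among all genes with that pattern AP control was the higher one in 57.6%. Such a member enters both comparisons with AP control with 1 and the same difference, which rests on the AP control value, so its 2 appearances are not separate measurements. Cavtratin alone stood apart in 5 members, 10.9% against 9.48% of all genes, lower in each, where it was lower in 720 of the 1091 genes with that pattern. Cav1-shRNA alone stood apart in 7, 15.2% against 11.2%, higher in 4 and lower in 3, against higher in 60.3% of all such genes. Below the floor 29 of 40 members were equal in all 3 arrays, 72.5% against 57.5%.

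**Figure D3:**
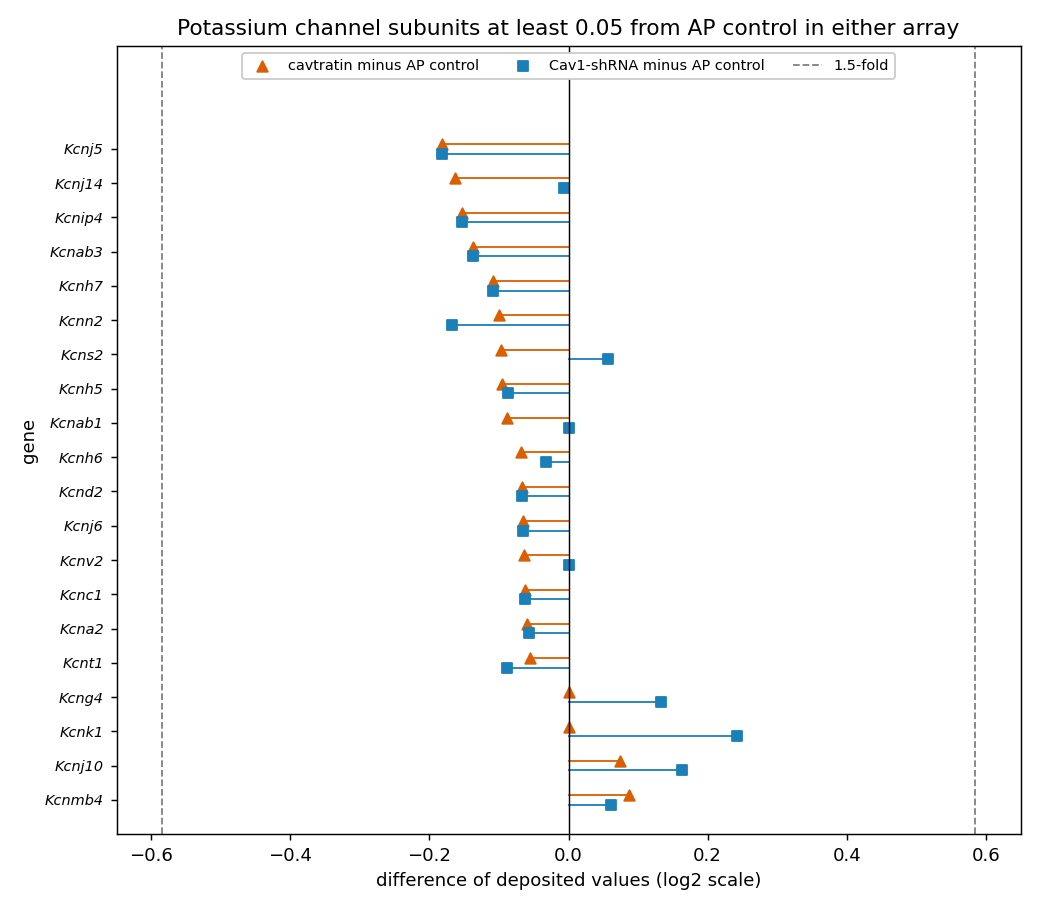
Difference from AP control on the log2 scale (x axis) for cavtratin (triangles) and Cav1-shRNA (squares), for the 20 potassium channel subunits at or above the floor that differed by at least 0.05 in either array (y axis), with 1.5-fold as dashed lines. Both sets of points share the AP control array, and every point lies between −0.18 and 0.24, inside the 1.5-fold lines.

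Among inward rectifiers, 8 of 14 members lay at or above the floor. Kcnj10, the main inward rectifier of Muller glia, was at 8.98 in AP control, 9.06 in cavtratin and 9.15 in Cav1-shRNA, so that AP control was lowest. Its differences from AP control were 0.075 and 0.16, the second of them 1.12-fold. Muller glia markers were higher in 6 of 8 in Cav1-shRNA with a median of 0.078 and in 2 of 8 in cavtratin with a median of 0, and their summed level was 12000 in AP control, 12900 in cavtratin and 12700 in Cav1-shRNA. The part of Muller glia in the Kcnj10 value was not tested. Kcnj14, a strong inward rectifier, was at 10.02 in AP control, 9.85 in cavtratin and 10.01 in Cav1-shRNA, so cavtratin alone was low, by 0.16 against each of the other arrays. Kcnj5, a G protein-gated subunit, was at 7.30 in AP control against 7.12 in both others, a difference of −0.18 or 1.13-fold. Its assembly partners did not all share this. Kcnj6 stood at 6.53 in AP control and 6.46 in both others, while Kcnj3 at 7.81 and Kcnj9 at 8.11 were equal in all 3. Kcnj2, a strong inward rectifier, was at 6.77 in AP control and 6.72 in both others, and Kcnj12, of the same group, was at 6.89 in all 3. Below the floor, Kcnj8, the pore subunit of ATP-sensitive channels in pericytes, was at 6.00, 5.99 and 6.17 in AP control, cavtratin and Cav1-shRNA. Abcc9, the sulfonylurea receptor that pairs with it, was at 6.69 in both AP control and cavtratin, against 6.71 in Cav1-shRNA.

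Tandem-pore channels carry background potassium currents, and 4 of 13 lay at or above the floor. Kcnk1, a weakly conducting background channel, was at 8.99 in both AP control and cavtratin, against 9.23 in Cav1-shRNA. Its difference of 0.24, or 1.18-fold, was the largest of any member at or above the floor in any of the 3 comparisons, and centring put it at 0.30 against AP control. Kcnk6, its close relative, moved by 0.035 in the same array. Kcnk4, a mechanosensitive channel, was at 6.83 in cavtratin and 6.85 in the other arrays, and the acid-sensitive Kcnk9 was at 7.18 in all 3. Kcnk2, also mechanosensitive, and Kcnk5, both of the retinal list, lay below the floor at 6.12 and 4.73 and were equal in all 3.

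Voltage-gated pore subunits form the largest class, with 19 of 26 members at or above the floor, and none of the 19 was higher than AP control in either array as deposited, while centring turned each equal value into a small positive difference and in Cav1-shRNA left 4 lower and 15 higher. In cavtratin 10 were lower, 9 equal and 0 higher, against 25.9%, 54.5% and 19.6% of all genes. In Cav1-shRNA 11 were lower, 8 equal and 0 higher, against 21.9%, 53.0% and 25.2%. Quantile normalization made all 19 lower in cavtratin, and 7 lower and 12 higher in Cav1-shRNA. The ether-a-go-go family, which carries slowly gating currents, leaned lower. Kcnh5 was at 10.25 in AP control, 10.15 in cavtratin and 10.16 in Cav1-shRNA, and its close relative Kcnh1 was at 7.99 in all 3. Kcnh7 was at 8.24 in AP control and 8.13 in both others, Kcnh6 at 8.47, 8.41 and 8.44, and Kcnh2, known as the cardiac ERG channel, at 7.79, 7.78 and 7.76. All 3 of these ERG subunits were thus highest in AP control as deposited, by 0.015 to 0.11, though with centring Kcnh2 and Kcnh6 were higher in Cav1-shRNA, by 0.029 and 0.025. The Shal subunits of fast inactivating currents differed by at most 0.067. Kcnd2 was at 8.15 in AP control and 8.08 in both others, Kcnd3 at 7.83, 7.78 and 7.81, and Kcnd1 at 6.90 in all 3.

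Shaker subunits, which limit repetitive firing, differed by at most 0.060 on the probe sets used. The second probe set of Kcna4, not used, was lower by 0.20 in both other arrays than in AP control. Kcna2 was at 8.72 in AP control, 8.66 in cavtratin and 8.66 in Cav1-shRNA. Kcna1 was at 7.50, 7.50 and 7.49, Kcna5 at 8.14, 8.12 and 8.14, and Kcna3, Kcna4 and Kcna6 were equal in all 3. Among the Shaw subunits of fast-spiking neurons, Kcnc1 was at 8.21 in AP control and 8.15 in both others, Kcnc4 was at 7.93 in both AP control and cavtratin, against 7.89 in Cav1-shRNA, and Kcnc2 was at 8.06 in all 3. Kcnb2, a slow delayed rectifier, was at 8.66 in cavtratin and 8.68 in the other arrays. Kcnq3, a subunit of the M-current, was at 7.31 in both AP control and cavtratin, against 7.28 in Cav1-shRNA, and Kcnq5 lay below the floor at 6.11 in all 3.

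Modifier subunits do not conduct alone and alter the channels they join. Kcnv2, the photoreceptor subunit whose loss disturbs cone and rod responses, was at 11.33 in AP control and Cav1-shRNA and at 11.26 in cavtratin, a difference of −0.064 as deposited and −0.104 with quantile normalization. Cone markers were lower in the same array, as given above, and rod markers summed to 29500 in AP control, 29100 in cavtratin and 29400 in Cav1-shRNA. The part of photoreceptor content in the Kcnv2 value was not tested. Kcng4 was at 7.49 in both AP control and cavtratin, against 7.62 in Cav1-shRNA. Kcns2 was at 6.67 in AP control, 6.57 in cavtratin and 6.72 in Cav1-shRNA, so its differences from AP control had opposite signs, −0.097 and 0.057. All 3 members of this class at or above the floor were higher in Cav1-shRNA than in cavtratin, by 0.064 to 0.15. Of all genes, 25.9% were higher in that comparison.

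Auxiliary subunits attach to voltage-gated pores, and 7 of 11 lay at or above the floor. Kcnip4, a calcium-binding partner of the Shal channels, was at 8.78 in AP control and 8.63 in both others, a difference of −0.15. Kcnip1 was at 8.84 and 8.82 in the same pattern, and Kcnip3 was at 7.98 in all 3. Of the beta subunits of Shaker channels, Kcnab3 was at 7.45 in AP control and 7.31 in both others, Kcnab1 at 7.64 in AP control and Cav1-shRNA and 7.55 in cavtratin, and Kcnab2 at 9.23 in all 3. Kcne2, a single-pass beta subunit, was at 7.97 in all 3. None of the 7 was higher than AP control in either array as deposited. Of all genes, 19.6% were higher in cavtratin and 25.2% in Cav1-shRNA. Centring made the equal ones slightly higher and, in Cav1-shRNA, Kcnip1 too, which left 2 lower and 5 higher. Quantile normalization made all 7 lower in cavtratin, and 3 lower and 4 higher in Cav1-shRNA.

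Calcium- and sodium-activated channels link potassium current to other ions. Kcnma1, the pore of the BK channel, was at 10.95 in AP control and 10.92 in both others. Its beta subunit Kcnmb4 was at 6.63 in AP control, 6.72 in cavtratin and 6.69 in Cav1-shRNA, just above the floor. With Kcnj10 it was 1 of the 2 members at or above the floor that were higher than AP control in cavtratin as deposited. The second probe set of Kcnmb4, below the floor at 5.85, was equal in all 3. Averaging both put its cavtratin difference at 0.043 instead of 0.086. Of the small-conductance subunits, Kcnn2 was at 7.01, 6.91 and 6.84 and Kcnn1 at 7.13, 7.13 and 7.18. Thus Kcnn2 was lowest in Cav1-shRNA, by 0.17 against AP control, while Kcnn1 was highest there, by 0.048. The sodium-activated Kcnt1 was at 7.81, 7.76 and 7.72. Its relative Kcnt2 lay below the floor in every array, at 6.14, 5.78 and 5.62, and its differences from AP control, −0.35 and −0.52, were the largest of any member, the second of them 1.43-fold. Values below the floor were not read further.

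The retinal list held 22 measured members, chosen for their known retinal roles. At or above the floor were 19. In cavtratin 10 were lower and 2 higher, against 25.9% and 19.6% of all genes, with a median of −0.023. In Cav1-shRNA 9 were lower and 4 higher, against 21.9% and 25.2%, with a median of 0. These counts are of deposited values, and such counts moved with the scaling, as given above. A further list held 18 genes that are no members, of which 17 were measured. It included the Shal partners Dpp6 and Dpp10, the hyperpolarisation-activated Hcn genes and the sulfonylurea receptors. It also included Cnih2, Cnih3, Neto1 and Sestd1, so its counts do not describe partners of potassium channels alone. In cavtratin 3 of the 10 at or above the floor were lower and 0 higher, against 25.9% and 19.6% of all genes. The 3 were Cnih2, by 0.062, Neto1, by 0.060, and Dpp10, by 0.007. In Cav1-shRNA 2 of 11 were lower and 2 higher, against 21.9% and 25.2% of all genes. The lowest was Dpp10, at 7.40 in AP control, 7.39 in cavtratin and 7.24 in Cav1-shRNA.

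Of the 86 members, 7 had 2 probe sets, and in 3 of these both probe sets were equal in all arrays, those of Kcna6, Kcnj3 and Kcnq5. In Kcna4 the probe set used was at 8.59 in all 3 arrays, and the other was at 7.43 in AP control and 7.23 in cavtratin and Cav1-shRNA, a difference of −0.20. In Kcnab3 the probe set used was lower by 0.14 in both arrays than in AP control, and the other, below the floor at 5.62, was equal in all 3. The probe sets of Kcna4 thus disagreed by as much as the largest differences seen at or above the floor in cavtratin. Kcnma1 and Kcnmb4 also had a second probe set, below the floor, that was equal in all 3 arrays while the one used was not.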

How the data were processed

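The values were analysed as the authors deposited them, 1 log2 value per probe set and array. The log base was inferred from the range. How probes were summarised and normalized is not given in the sources used here. Per the labels' protocols, total RNA was extracted with TRIZOL and biotin-labelled cDNA was hybridised to Affymetrix whole-transcript arrays. GEO's platform annotation, which may be outdated, lists 1 symbol for 23521 of 41345 probe sets and several for 1814, and leaves 16010 out. All 86 members matched the RefSeq table of GRCm38.p6 by Entrez identifier. Differences were taken with Python 3.11.15 and pandas 2.3.3, and the loess trend (span 0.3) with statsmodels 0.14.6. With 1 array per group no test was possible, and the number of arrays limits the precision. Named were, per comparison, up to 10 members with the largest difference of each sign at or above the floor, and the retinal list. The members and lists were chosen with earlier results of these data known. Members outside that rule, named to complete a class, were chosen after their values were seen. The counting was tested on simulated data. Alternatives were other scalings, averaging a gene's probe sets, other floors and other fold thresholds. Scanner files were not used here.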

Additional observations from a re-analysis of the deposited data

How the results depend on the processing

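The count of members at least 1.5-fold apart was 0 in each direction of each comparison as deposited. It was also 0 under 3 other scalings and with a gene's probe sets averaged. So it was with a floor 0.5 lower or higher, no floor, and a lower or higher fold threshold. A higher floor or threshold could give no other count, and centring moves differences too little to change it, so these are no check. The median over all members was 0 in each comparison and lay between −0.0055 and 0.058 under the other scalings. Of 432 values of named members under alternatives, 26 changed sign, all of them 0.056 or less in size as deposited. None moved by more than the SD taken from genes with 2 probe sets. That was largely fixed in advance, so it is no measure of stability. Centring adds at most 0.058 to any difference, less than each SD, and averaging leaves genes with 1 probe set unchanged. Of the values of at least 0.05 as deposited, 27 kept their sign and moved by more than 1.5 times, 15 of them with centring, 8 with quantile normalization and 4 with averaged probe sets. The counts of higher and lower members depended on the scaling, as given with each comparison. No paired analysis was possible because each group has 1 array. A difference below the SD taken from genes with 2 probe sets was not resolved by these arrays. One above it was not resolved either, since that SD holds no spread between animals or pools.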

Other observations

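Some potassium channels known from leukocytes were looked at after the values were seen, and they are no full list of such channels. The reason was that markers of neutrophils, monocytes, microglia and macrophages were higher in cavtratin than in AP control. Kcna3, a channel of T cells and activated microglia, was at 8.36 in all 3 arrays. Kcnn4, the calcium-activated channel of leukocytes, was at 5.43 in all 3, and Kcnk13, the tandem-pore channel of resident microglia, was at 5.78 in all 3, both below the floor of 6.50. Kcnk6, found in macrophages, was at 6.52 in AP control and cavtratin, against 6.55 in Cav1-shRNA. In cavtratin, 7 of 8 measured microglia and macrophage markers were higher than in AP control, with a median of 0.97, and 6 of 7 neutrophil and monocyte markers, with a median of 1.86. All 4 of these channels had a difference of 0 there, as did 61.6% of all genes, so nothing was read from it.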
